A study of Mus musculus with 12 samples.

Results

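Transcript levels under 3 antidepressants at micromolar doses were set against those of cultures given duloxetine or no named drug. The tested pool was 6 arrays, 2 each of amitriptyline (5 µM), citalopram (10 µM) and imipramine (5 µM). The other pool was 4 arrays, 2 of duloxetine (0.1 µM) and 2 of control, so that 10 of the 12 arrays of the study entered. The remaining 2 arrays, of mirtazapine (50 µM), were in neither pool and are given beside them. All groups were primary neurons cultured from embryo brain of the outbred mouse stock ICR (CD-1) and kept in Neurobasal medium with B27 serum-free supplement. Drugs were added on day 3 of culture and RNA was taken on day 5, after 48 h. The sources used here do not say what the controls were given. The labels do not say whether replicates were separate cultures or animals, so every error below measures the spread between these arrays, which may be technical.

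Amitriptyline and imipramine are tricyclic antidepressants that block the reuptake transporters of serotonin and noradrenaline and also several neurotransmitter receptors. They differ in the central ring, which in imipramine holds a nitrogen and in amitriptyline a carbon joined to the side chain by a double bond. Citalopram is a selective serotonin reuptake inhibitor with no tricyclic core, and duloxetine blocks the reuptake of serotonin and noradrenaline. Cationic amphiphilic amines, a class that includes the first 3 drugs but is not limited to them, are known to collect in lysosomes. Cultures of embryonic brain made in serum-free medium are mainly neurons, with a minority of dividing progenitors, astrocytes and cells of the oligodendrocyte lineage. In RNA of a whole culture, fewer cells of a type and less RNA per cell cannot be told apart.

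The pools were chosen from these same data. Along the second principal component (14.5% of the variance over 18495 probe sets) the 6 micromolar arrays lay between −1.03 and 10.1, and the 4 duloxetine and control arrays between −16.1 and −5.03. The nearest members of the 2 pools on that axis were citalopram replicate 1, at −1.03, and control replicate 1, at −5.03. The mirtazapine arrays lay at 7.11 and 11. Because this grouping used the outcome, the difference between the pools is given as a description, with no test. Counts of probe sets past an adjusted p of 0.05 in limma only say how many features stand out of the array noise in this grouping. On the first component (52.3%) duloxetine replicate 2 lay at 34.1 and mirtazapine replicate 2 at 37.8, far from the other 10 arrays, of which none was above 3.91. The mean correlation of these arrays with the other 11 was 0.9774 for duloxetine replicate 2 and 0.9764 for mirtazapine replicate 2, against 0.9876 to 0.9923 elsewhere. Results are therefore also given without duloxetine replicate 2. The culture label was checked on neuron markers: the mean log2 level of 17 of them lay between 10.77 and 10.86 on the micromolar arrays and between 10.79 and 10.91 on the duloxetine and control arrays.

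Of 23521 probe sets with exactly 1 gene symbol, 87 (0.37%) were higher and 95 (0.404%) were lower in the micromolar pool past the threshold. These 182 probe sets, called below those past the threshold, represent 182 genes, and each had arrays of the 2 pools that did not overlap. Over all probe sets, 347 (1.48%) were higher on all 6 micromolar arrays than on any of the other 4, and 395 (1.68%) were lower. The counts given below for each gene list are to be read beside these shares. The typical differences were small: 9 genes past the threshold were over 2-fold higher, 1 was over 2-fold lower, and the median difference over all probe sets was −0.02 on the log2 scale. A 95% interval reached 0.188 log2 units to either side at the median probe set. All differences below are log2 differences, micromolar arrays minus duloxetine and control arrays, with their SE.

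**Figure D1:**
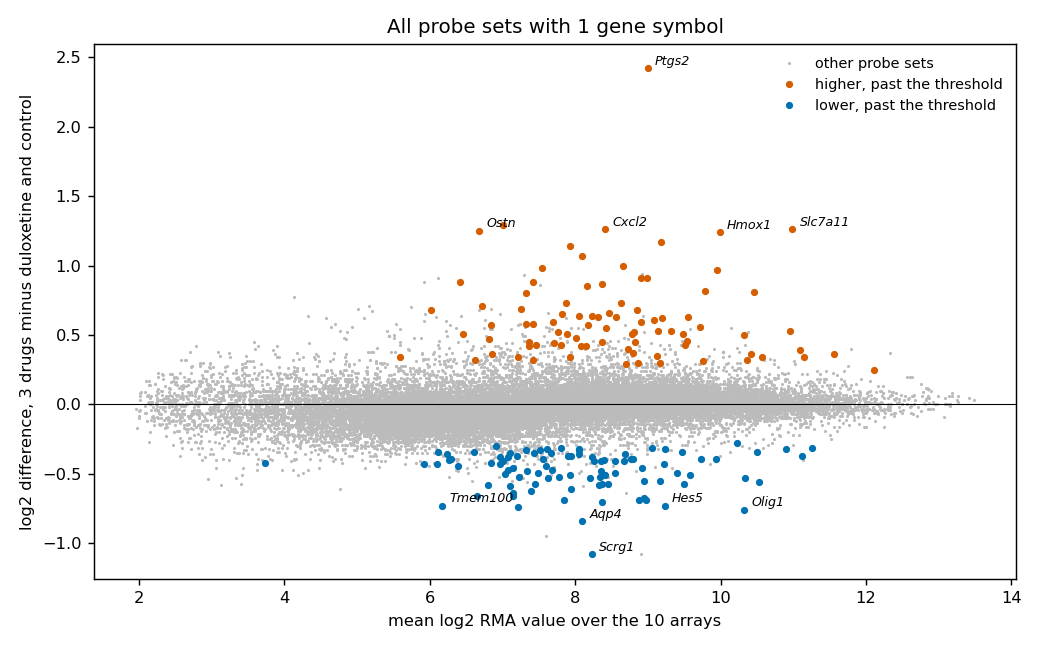
Each point is 1 of 23521 probe sets, placed by its mean log2 RMA value over the 10 arrays (x axis) and its log2 difference between the micromolar pool and the duloxetine and control pool (y axis). Orange points are the 87 probe sets higher and blue points the 95 lower past an adjusted p of 0.05. Ptgs2 stands alone at 2.42, and Scrg1 is the lowest of the blue points at −1.08.

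Genes of the integrated stress response were higher in the micromolar pool. In this response, kinases that sense amino acid shortage, unfolded protein, heme deficiency or viral RNA phosphorylate the translation factor eIF2α, which favours translation of the transcription factor ATF4. ATF4 and its partners bind CARE elements, hybrid CCAAT-enhancer-binding-protein and ATF sites, in genes of amino acid transport and synthesis. All 36 measured genes of this list had a positive difference (median 0.27), where 42.5% of all probe sets were positive and their median was −0.02. Taken drug by drug, 35 were positive for amitriptyline, 36 for citalopram and 36 for imipramine. Of the 36, 24 had no overlap between the pools and 10 were past the threshold, all higher. The mean of the list lay between 0.315 and 0.409 above the duloxetine and control mean on the 6 micromolar arrays, and between −0.0594 and 0.122 on the other 4.

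Promoter stretches of Slc7a11, Atf3 and Nupr1 are shown, as the stress response genes of largest difference whose windows hold the element ascribed to this pathway. Capitals mark TGATGNAA, read on either strand. They come from the RefSeq promoter table of build GRCm38.p6, run 5′ to 3′ along the gene and end 1 base before the annotated start.
Slc7a11, chr3:50443614-50443733, minus strand: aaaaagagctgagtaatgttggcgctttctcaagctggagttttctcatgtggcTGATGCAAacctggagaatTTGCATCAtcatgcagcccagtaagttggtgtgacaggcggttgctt
Atf3, chr1:191183334-191183453, minus strand: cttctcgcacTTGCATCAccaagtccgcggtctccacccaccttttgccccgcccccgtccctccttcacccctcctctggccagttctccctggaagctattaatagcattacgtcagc
Nupr1, chr7:126625471-126625590, minus strand: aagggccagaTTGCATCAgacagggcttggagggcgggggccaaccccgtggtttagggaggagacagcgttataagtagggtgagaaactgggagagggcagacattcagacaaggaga

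In Slc7a11 the 2 matches begin 66 and 47 bases before the start, and those of Atf3 and Nupr1 begin 110 bases before it. In windows running from 250 bases before to 50 bases after a gene start, a match stood in 28.1% of 32 windows of the stress response list (28 genes matched), in 10.2% of 88 windows of the genes that were higher past the threshold and in 3.39% of all 20611 windows. A match only describes the letters of the window.

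Slc7a11, whose promoter stretch heads that set, encodes the cystine-glutamate exchanger that feeds glutathione synthesis. Its log2 value was 11.39 at lowest, 11.48 at the median and 11.67 at highest on the micromolar arrays, against 10.58 and 9.97 in duloxetine and 9.78 and 10.58 in control. The pools did not overlap, and the difference was 1.26 ± 0.15 (2.4-fold). A second probe set of the gene gave 0.93 without passing the threshold. Cth, the enzyme that makes cysteine from cystathionine, had 8.87, 9.07 and 9.26 (lowest, median, highest) on the micromolar arrays, against 8.25 and 8.23 in duloxetine and 7.38 and 8.39 in control (1.00 ± 0.17). Control replicate 1 was the lowest of its pool by a wide margin. Atf3, a transcription factor gene of stress responses, lay between 9.13 and 9.66 on the micromolar arrays, against 8.23 and 8.55 in duloxetine and 8.33 and 8.64 in control (0.91 ± 0.11). Nupr1, a small chromatin-associated stress regulator, lay between 8.55 and 8.84, against 7.92 and 7.88 in duloxetine and 7.55 and 8.04 in control (0.87 ± 0.09). The remaining 6 members past the threshold, named after their values were seen, were Ppp1r15a (0.63), Pck2 (0.56), Slc7a3 (0.53), Shmt2 (0.36), Aldh1l2 (0.36) and Eif4ebp1 (0.34). Ppp1r15a encodes the subunit that directs a phosphatase to eIF2α, and Slc7a3 a carrier of cationic amino acids. Shmt2 and Aldh1l2 are mitochondrial folate enzymes, Pck2 makes phosphoenolpyruvate in mitochondria, and Eif4ebp1 encodes a repressor of cap-dependent translation. Slc1a5, a carrier of neutral amino acids that lies outside the list, was at 9.47 to 9.88 on the micromolar arrays, against 8.69 and 8.40 in duloxetine and 8.02 and 8.84 in control (1.17 ± 0.15), although its second probe set differed by only 0.14.

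Antioxidant genes under the transcription factor NRF2 showed 3 members with large differences and a small shift in the rest. Of 24 measured genes, 19 had a positive difference (median 0.14, or 0.07 without duloxetine replicate 2), 7 had no overlap and 3 were past the threshold, all higher. Hmox1, the inducible heme oxygenase, had 10.38, 10.48 and 10.62 (lowest, median, highest) on the micromolar arrays, against 9.22 and 9.26 in duloxetine and 9.02 and 9.48 in control. The difference was 1.24 ± 0.09 (2.36-fold), with a gap of 0.9 between the pools. Srxn1, which encodes the peroxiredoxin-repairing enzyme sulfiredoxin, lay between 10.27 and 10.49 on the micromolar arrays, against 9.33 and 9.71 in duloxetine and 8.98 and 9.48 in control (0.97 ± 0.12). Slc7a11 is the third and is shared with the stress response list. In the chaperone and heat shock list 24 of 25 genes were positive, with a median of 0.09, and 0 were past the threshold in limma, with 6 free of overlap. Without duloxetine replicate 2, 18 of the 25 were positive.

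Ptgs2 had the largest difference of all probe sets. It encodes the inducible cyclooxygenase, which makes the precursor of the prostaglandins. The 6 micromolar arrays had log2 values of 9.80 at lowest, 9.92 at the median and 10.36 at highest, against 7.50 and 7.16 in duloxetine and 7.45 and 8.11 in control. The lowest micromolar array was 1.69 log2 units above the highest of the other pool, and the pooled means were 9.97 ± 0.2 (SD, n = 6) and 7.55 ± 0.4 (SD, n = 4). The difference was 2.42 ± 0.16, or 5.34-fold, with a 95% interval of 2.06 to 2.77. The genes of prostaglandin synthesis did not differ as a group: of 16 measured, Ptgs2 included, 8 were positive and 8 negative (median −0.04, or 0.02 without duloxetine replicate 2). The other 2 past the threshold act before and after the cyclooxygenase. Abcc4, an exporter of prostaglandins and cyclic nucleotides, lay between 8.42 and 8.64 on the micromolar arrays, against 7.58 and 7.31 in duloxetine and 7.16 and 7.74 in control (1.07 ± 0.1). Pla2g4a, the phospholipase that frees arachidonic acid, lay between 6.47 and 6.92, against 6.02 and 6.26 in duloxetine and 6.08 and 6.24 in control (0.51 ± 0.09).

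**Figure D2:**
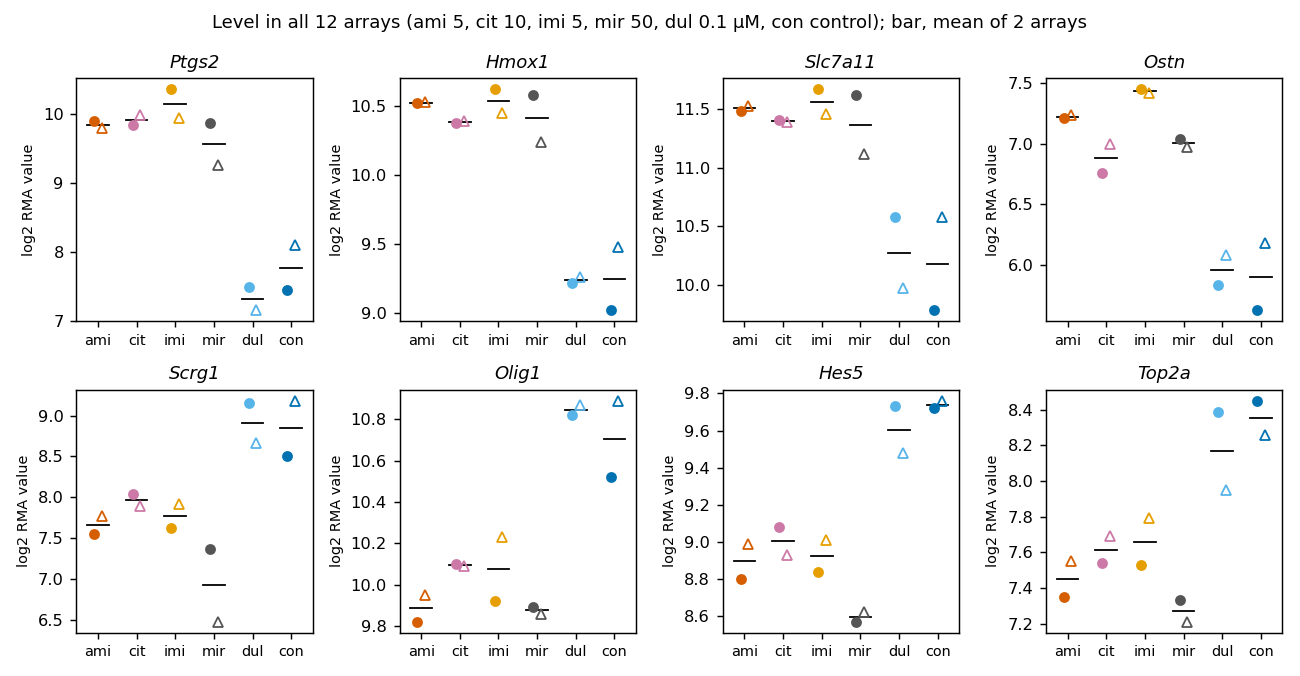
Log2 RMA value (y axis) of 8 genes on all 12 arrays, grouped by drug (x axis, with the micromolar drugs at left and duloxetine and control at right). Circles are replicate 1, triangles replicate 2 and bars the mean of 2 arrays. For Ptgs2 the micromolar arrays begin at 9.80 and the duloxetine and control arrays end at 8.11.

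Chemokine and NF-kB target genes gave 3 members past the threshold of 24 measured, all higher, while 14 of the 24 were positive (median 0.03). Another 1 was lower without overlap, and the lowest difference in the list was −0.49. Cxcl2, a chemokine that attracts neutrophils, had 8.57, 8.91 and 9.35 (lowest, median, highest) on the micromolar arrays, against 7.48 and 7.83 in duloxetine and 7.62 and 7.71 in control (1.26 ± 0.13). Its relative Cxcl1 lay between 7.75 and 8.15, against 6.88 and 7.14 in duloxetine and 6.66 and 7.15 in control (0.98 ± 0.11). Lcn2, the iron-siderophore-binding lipocalin, lay between 7.47 and 7.92, against 6.59 and 7.04 in duloxetine and 6.92 and 6.81 in control (0.80 ± 0.1). The classical cytokine genes of the list stayed near 0, for example Tnf at −0.11, Il6 at −0.07 and Il1b at 0.01, chosen after their values were seen. Microglia, a known source of such transcripts, were followed by 16 markers, of which 5 were positive (median −0.05, or 0.01 without duloxetine replicate 2) and 1, Lyz2, was past the threshold. Lyz2, the myeloid lysozyme, lay between 6.87 and 7.13 on the micromolar arrays, against 6.65 and 6.57 in duloxetine and 6.72 and 6.63 in control (0.36 ± 0.07). The mean of the microglial list was 6.79 to 6.93 on the micromolar arrays and 6.78 to 6.97 on the others; its part in the chemokine values was not tested.

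Early response genes, which neurons switch on within minutes of activity or growth factor signals, were higher in 2 of 31 members past the threshold, with 18 positive (median 0.03, or −0.02 without duloxetine replicate 1). Ier3, a stress- and growth-factor-induced regulator of ERK signalling and cell survival, had 9.15, 9.25 and 9.47 (lowest, median, highest) on the micromolar arrays, against 8.34 and 8.21 in duloxetine and 8.43 and 8.46 in control (0.91 ± 0.08). Zfp36, an RNA-binding protein that speeds the decay of inflammatory messages, lay between 7.73 and 8.0, against 7.44 and 7.40 in duloxetine and 7.29 and 7.63 in control (0.44 ± 0.08). Fos, the standard activity marker, is named here after its values were seen: its difference was 0.20 with a 95% interval of −0.29 to 0.7.

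The other genes with the largest positive differences belonged to no common list. Ostn, which encodes the secreted peptide osteocrin, had 6.76, 7.22 and 7.45 (lowest, median, highest) on the micromolar arrays, against 5.83 and 6.08 in duloxetine and 5.62 and 6.18 in control (1.25 ± 0.15). Car6, a secreted carbonic anhydrase, lay between 7.35 and 7.81, against 6.34 and 5.85 in duloxetine and 6.04 and 6.73 in control (1.29 ± 0.15). Cdsn, an adhesion protein of the outer skin, lay between 8.10 and 8.70, against 6.94 and 7.65 in duloxetine and 6.90 and 7.50 in control (1.14 ± 0.17). In Cdsn both second replicates were well above both first replicates within duloxetine and control. P3h2, a collagen prolyl hydroxylase, lay between 7.67 and 7.93, against 6.96 and 6.87 in duloxetine and 6.74 and 6.98 in control (0.88 ± 0.07). Ostn was also the 1 member past the threshold among 27 neuropeptide genes, of which 10 were positive. Over all probe sets 0.37% were higher and 0.404% lower past it. Without duloxetine replicate 2, 2 neuropeptide genes were lower past the threshold. Among 22 genes of glycolysis and hypoxia, 11 were positive and 3 were past the threshold, all higher: the glucose transporter Slc2a1 (0.63 ± 0.07, with 0.01 for its second probe set), the angiogenic factor Vegfa (0.34 ± 0.06) and the glycolytic regulator Pfkfb3 (0.30 ± 0.05). Vegfa lay between 10.59 and 10.79 on the micromolar arrays, against 10.42 and 10.39 in duloxetine and 10.29 and 10.37 in control. It was also the 1 of 23 neurotrophic factor genes past the threshold, and Bdnf, named after its values were seen, differed by −0.01 (95% interval −0.17 to 0.15). Without duloxetine replicate 2, 2 genes of glycolysis and hypoxia and 2 neurotrophic factor genes were lower past the threshold, where 1.1% of all probe sets were.

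Lysosomal genes were examined because cationic amphiphilic drugs collect there. Of 35 measured, 26 were positive (median 0.06; 22 positive and 0.03 without duloxetine replicate 2) and 1 was past the threshold, with 4 free of overlap. That gene, Gpnmb, a membrane glycoprotein linked to lysosomal stress, lay between 7.41 and 7.85 on the micromolar arrays, against 6.97 and 7.30 in duloxetine and 7.01 and 7.02 in control (0.58 ± 0.1). Without duloxetine replicate 2, 2 lysosomal genes were higher past the threshold. Sterol and fatty acid synthesis genes, which the same class of drugs can raise, were positive in 24 of 29 (median 0.08, or 0.13 without duloxetine replicate 1), with 0 past the threshold in limma and 2 free of overlap.

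On the lower side, genes of the oligodendrocyte lineage had negative differences in 14 of 14 (median −0.37), 5 of them without overlap. Olig1, a transcription factor of the lineage, had 9.82, 10.02 and 10.23 (lowest, median, highest) on the micromolar arrays, against 10.82 and 10.87 in duloxetine and 10.52 and 10.89 in control. The difference was −0.76 ± 0.1. Sox10, a second regulator of the lineage, lay between 6.81 and 6.94 on the micromolar arrays, against 7.34 and 7.79 in duloxetine and 7.26 and 7.45 in control (−0.59 ± 0.09). Those 2 were past the threshold. Pdgfra, the growth factor receptor of oligodendrocyte precursors, had a larger difference (−1.08 ± 0.22) that did not pass, with 7.82 to 8.77 on the micromolar arrays, against 9.91 and 9.52 in duloxetine and 8.88 and 9.90 in control. Gpr17, a receptor of maturing precursors, was at 7.13 to 7.30 on the micromolar arrays, against 8.60 and 8.52 in duloxetine and 7.25 and 8.34 in control. Control replicate 1 thus lay among the micromolar arrays for Gpr17, which is named after its values were seen. The list mean was −0.318 on control replicate 1, against −0.517 to −0.402 on the micromolar arrays and 0.0516 to 0.169 on the other 3. Without that array the median was −0.45, and with control as the only comparison group it was −0.26. Duloxetine minus control was positive in 13 of the 14 genes, with a median of 0.24.

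Astrocyte markers were lower in the same direction: 17 of 19 were negative (median −0.25), 8 had no overlap and 3 were past the threshold. Aqp4, the water channel of astrocyte endfeet, had 7.55, 7.76 and 7.98 (lowest, median, highest) on the micromolar arrays, against 8.71 and 8.35 in duloxetine and 8.71 and 8.64 in control (−0.84 ± 0.09). Aldoc, a glycolytic aldolase of astrocytes, lay between 11.06 and 11.23, against 11.48 and 11.44 in duloxetine and 11.41 and 11.47 in control (−0.31 ± 0.05). Glul, glutamine synthetase, lay between 10.05 and 10.16, against 10.50 and 10.32 in duloxetine and 10.36 and 10.44 in control (−0.28 ± 0.05), and its second probe set gave −0.29. Gfap, the filament of reactive astrocytes, had no overlap but did not pass (−0.44, 95% interval −0.65 to −0.23). The list mean was −0.327 to −0.143 on the micromolar arrays and −0.0392 to 0.0424 on the others.

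The Notch and BMP pathways can hold progenitors and glia undifferentiated or direct glial fate. Genes of these pathways, ligands as well as targets, were negative in 24 of 30 (median −0.15), with 7 free of overlap and 5 past the threshold. Hes5, the repressor that Notch switches on in neural progenitors, had 8.80, 8.96 and 9.08 (lowest, median, highest) on the micromolar arrays, against 9.73 and 9.48 in duloxetine and 9.72 and 9.76 in control (−0.73 ± 0.08). Its second probe set gave −0.24 without passing. Tmem100, a membrane protein induced by BMP receptors, lay between 5.69 and 6.04, against 6.45 and 6.37 in duloxetine and 6.72 and 6.89 in control (−0.73 ± 0.11). Dll3, a Notch ligand that acts within the cell, lay between 6.85 and 7.13, against 7.61 and 7.59 in duloxetine and 7.36 and 7.61 in control (−0.52 ± 0.08). Bmp7, a BMP ligand, lay between 7.95 and 8.18, against 8.46 and 8.66 in duloxetine and 8.31 and 8.44 in control (−0.38 ± 0.07). Progenitor markers were mixed. Of 16, 12 were negative (median −0.07); Hes5 and the transcription factor Pax6 (−0.33 ± 0.06) were lower past the threshold, whereas the filament Nes (0.51 ± 0.09) and the matrix protein Tnc (0.39 ± 0.05) were higher. Nes lay between 8.86 and 9.13 on the micromolar arrays, against 8.53 and 8.21 in duloxetine and 8.52 and 8.65 in control.

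Genes of mitosis were lower as a list, and the number past the threshold depended on 1 array. All 45 measured had a negative difference (median −0.37), 16 had no overlap and 10 were past the threshold. The list mean was −0.505 to −0.291 on the micromolar arrays; on the other 4 it was 0.0796 and −0.298 in duloxetine and 0.131 and 0.0869 in control. Duloxetine replicate 2, which stands apart on the first component, thus lay within the range of the micromolar arrays. Without it the median was −0.44 and 33 of the 45 were past the threshold, where 259 of all probe sets were lower past the threshold (1.1%) and 119 were higher (0.506%). The part of this array's overall shift in the list was not tested.

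Promoter stretches of Top2a, Mki67 and E2f8 are shown, as examples of lower genes whose windows hold the pair of elements of late cell cycle genes. CHR (cell cycle genes homology region) elements are bound by the DREAM and MuvB complexes, and CCAAT boxes by NF-Y. Capitals mark TTTGAA and CCAAT, read on either strand, and the motifs do not share bases in these stretches. They are from the same RefSeq table and build.
Top2a, chr11:99024190-99024419, minus strand: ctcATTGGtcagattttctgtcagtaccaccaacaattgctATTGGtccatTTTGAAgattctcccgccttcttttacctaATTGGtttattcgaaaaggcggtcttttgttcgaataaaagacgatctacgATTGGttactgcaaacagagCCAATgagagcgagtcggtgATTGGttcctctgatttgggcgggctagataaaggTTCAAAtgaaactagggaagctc
Mki67, chr7:135716380-135716579, minus strand: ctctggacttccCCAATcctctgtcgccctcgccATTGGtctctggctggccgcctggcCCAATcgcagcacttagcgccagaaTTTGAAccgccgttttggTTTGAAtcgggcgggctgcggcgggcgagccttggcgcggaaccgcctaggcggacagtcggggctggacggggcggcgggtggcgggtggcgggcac
E2f8, chr7:48881597-48881716, minus strand: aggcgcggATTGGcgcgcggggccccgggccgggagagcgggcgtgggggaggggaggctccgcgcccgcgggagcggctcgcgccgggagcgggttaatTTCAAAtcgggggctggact

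A CHR match stood in 76.9% of 39 windows of the mitosis list (37 genes matched), a CCAAT match in 76.9% and both in 66.7%. Over all 20611 windows the shares were 15.4%, 37.7% and 6.15%. Among 85 windows of the genes lower past the threshold, 18.8% held a CHR match, near the 15.4% of all windows, 56.5% a CCAAT match and 11.8% both. The mitosis list was made up of known cell division genes, so its shares describe that list and not the values on these arrays.

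Top2a, the topoisomerase that untangles chromosomes, had 7.35, 7.54 and 7.79 (lowest, median, highest) on the micromolar arrays, against 8.39 and 7.95 in duloxetine and 8.45 and 8.26 in control (−0.69 ± 0.11; −0.79 without duloxetine replicate 2). Mki67, the Ki-67 proliferation marker, lay between 7.96 and 8.29, against 8.89 and 8.49 in duloxetine and 8.77 and 8.71 in control (−0.57 ± 0.09; −0.64 without that array). Ccna2, the cyclin of S phase and mitotic entry, lay between 8.44 and 8.79, against 9.60 and 9.09 in duloxetine and 9.51 and 9.38 in control (−0.69 ± 0.1; −0.79 without that array). Nusap1, a spindle protein, lay between 6.77 and 7.03, against 7.68 and 7.21 in duloxetine and 7.58 and 7.67 in control (−0.66 ± 0.09; −0.77 without that array). In all 4 genes duloxetine replicate 2 was the lowest of its pool and still above every micromolar array. Genes of DNA replication were negative in 37 of 40 (median −0.11, or −0.17 without duloxetine replicate 2). Their list mean was −0.234 to −0.0809 on the micromolar arrays, and duloxetine replicate 2, at −0.168, lay within that range. With replicate number 2 alone the median was −0.02, with 18 positive and 22 negative. Of the list, 3 genes were free of overlap and past the threshold. Pclaf, a partner of the sliding clamp PCNA, was at 6.31 to 6.56 on the micromolar arrays, against 6.95 and 7.13 in duloxetine and 7.02 and 7.06 in control (−0.66 ± 0.06). The helicase subunit Mcm5 (−0.40 ± 0.08) and the maintenance methylation factor Uhrf1 (−0.35 ± 0.06) were the others. E2f8, the atypical E2F repressor whose stretch is shown, lay between 6.69 and 7.07, against 7.60 and 7.49 in duloxetine and 7.45 and 7.57 in control (−0.64 ± 0.08).

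Scrg1, first described as a transcript raised in scrapie, had the largest negative difference past the threshold. It had 7.55, 7.83 and 8.04 (lowest, median, highest) on the micromolar arrays, against 9.15 and 8.67 in duloxetine and 8.51 and 9.18 in control (−1.08 ± 0.14, 2.11-fold). Smoc1, a secreted calcium-binding matrix protein that modulates BMP signals, lay between 8.47 and 8.82, against 9.48 and 9.18 in duloxetine and 9.31 and 9.24 in control (−0.69 ± 0.08). Bgn, the matrix proteoglycan biglycan, lay between 7.94 and 8.23, against 8.89 and 8.91 in duloxetine and 8.66 and 8.70 in control (−0.70 ± 0.08), with −0.23 for its second probe set. Crym, a thyroid-hormone-binding protein, lay between 8.52 and 8.96, against 9.17 and 9.26 in duloxetine and 9.73 and 9.24 in control (−0.67 ± 0.12). Tmem255b (−0.74 ± 0.1) and Tekt5, a tektin of sperm flagella (−0.62 ± 0.11), complete the 15 lower genes. For Tekt5 the gap between the pools was only 0.09.

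**Figure D3:**
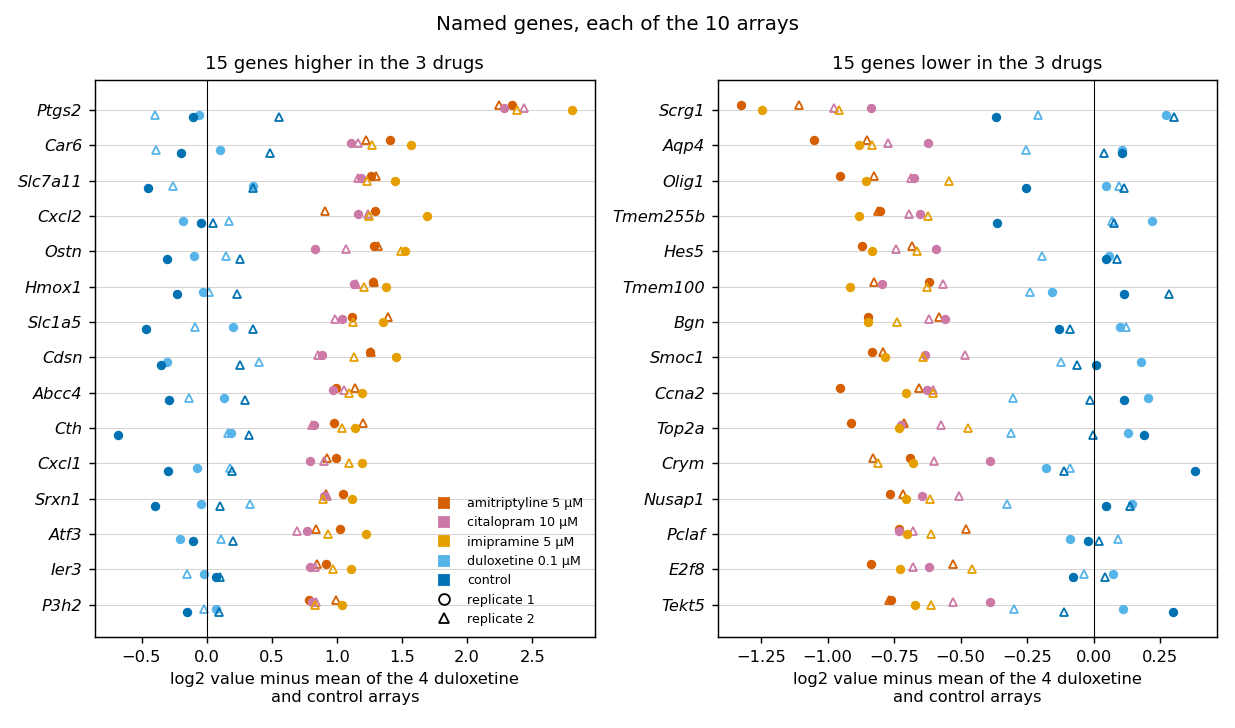
The 15 genes higher (left) and 15 lower (right) of largest difference past the threshold, with each of the 10 arrays as its log2 value minus the mean of the 4 duloxetine and control arrays (x axis). Warm colours are the micromolar drugs and blues are duloxetine and control; circles are replicate 1 and triangles replicate 2. The genes were picked for having no overlap between the pools, so no micromolar array can lie within the range of the blue points. Tekt5 has a gap of only 0.09.

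Neuronal genes differed little between the pools. Of 17 general neuron markers 13 were negative, with a median of −0.02, the same as over all probe sets, and 0 were past the threshold in limma with 0 free of overlap. Synaptic vesicle genes were 12 positive and 12 negative. Of the oxidative phosphorylation genes 19 of 40 were positive, but 7 of 40 without duloxetine replicate 2 and 4 of 40 with control as the only comparison group. Of the ERK feedback genes 10 of 17 were positive and of the genes of cell cycle entry and exit 8 of 19. Each of these 3 lists had 0 past the threshold in limma. Excitatory neuron markers were negative in 11 of 11 (median −0.11) and 2 of them had no overlap, with list means of −0.227 to −0.0659 on the micromolar arrays and −0.0277 to 0.0268 on the others. Inhibitory neuron markers were positive in 9 of 13 (median 0.14, or 0.07 without control replicate 1) and 3 had no overlap. Of those, the GABA-making enzyme Gad1 differed by 0.27 ± 0.07 and the peptide Sst by 0.37 ± 0.08, named after their values were seen. No member of either subtype list was past the threshold in limma.

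The transporters and receptors through which these drugs are known to act differed by small amounts as a list. Their mean lay −0.109 to −0.0289 from the duloxetine and control mean on the micromolar arrays. On the others it lay −0.0192 to 0.0139 from it, so the list means did not overlap. Of 29 monoamine transporter and receptor genes 9 were positive and 19 negative (median −0.06, or −0.01 after a second quantile normalization), with 0 past the threshold in limma and 1 free of overlap. Slc6a4, the serotonin transporter, was at 5.79 to 6.38 on the micromolar arrays, against 6.34 and 6.35 in duloxetine and 6.85 and 6.37 in control, so that the pools overlapped (−0.37, 95% interval −0.65 to −0.08; −0.24 without control replicate 1). Slc6a2, the noradrenaline transporter, differed by −0.09 (−0.36 to 0.19). Htr2a, a serotonin receptor, differed by 0.07 (−0.16 to 0.31), and Hrh1, a histamine receptor, by −0.14 (−0.37 to 0.09). These 3 overlapped as well.

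**Figure D4:**
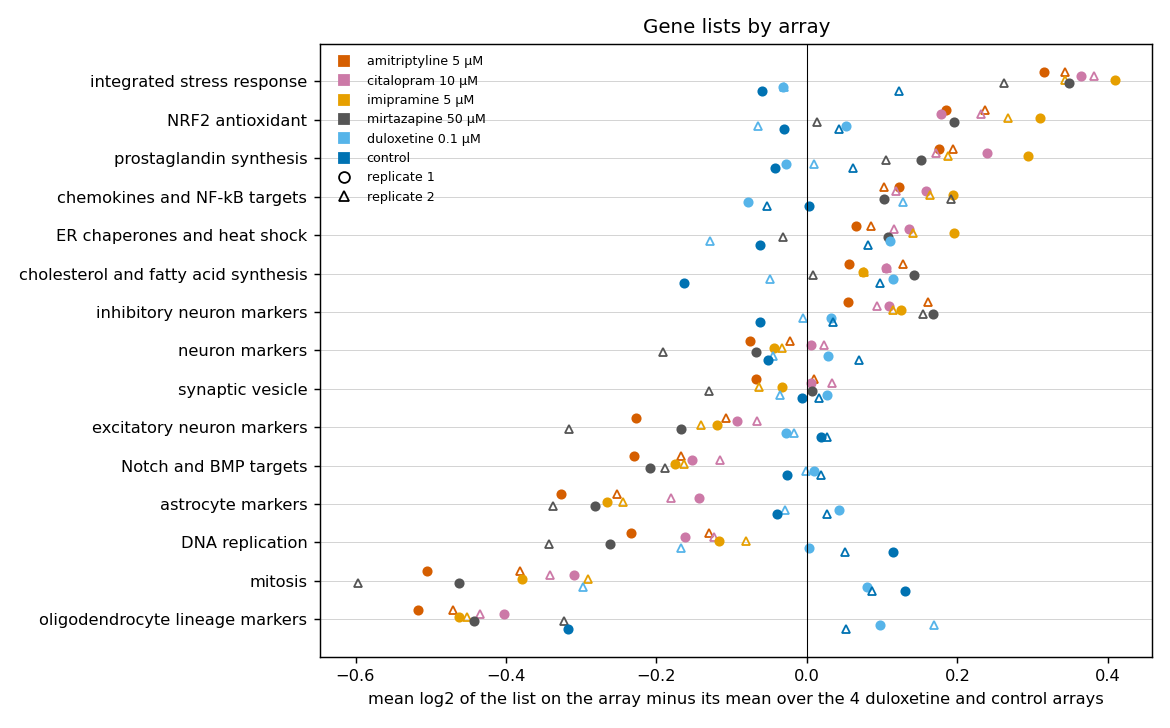
Mean log2 of each gene list on an array minus its mean over the 4 duloxetine and control arrays (x axis) for 15 lists, with all 12 arrays coloured by group; circles are replicate 1 and triangles replicate 2. The stress response list lies between 0.315 and 0.409 on the micromolar arrays. In the mitosis list duloxetine replicate 2 lies at −0.298, and in the oligodendrocyte list control replicate 1 lies at −0.318.

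Markers of other cells that could be carried along in such cultures were measured as well. The endothelial list mean was 6.02 to 6.21 on the micromolar arrays and 5.99 to 6.25 on the others, and 0 of 12 were past the threshold in limma. The choroid plexus list was at 6.38 to 6.62 on the micromolar arrays and 6.34 to 6.95 on the others, with 0 of 9. The erythroid list was at 5.66 to 5.89 on the micromolar arrays and 5.65 to 6.11 on the others, with 0 of 5. The fibroblast and pericyte list was at 7.04 to 7.18 on the micromolar arrays and 7.13 to 7.43 on the others. Its markers were negative in 13 of 15 (median −0.17, or −0.04 without duloxetine replicate 2). The 1 member past the threshold was the matrix protein Fn1, whose pools did not overlap and which was higher, at 10.45 to 10.56 on the micromolar arrays, against 10.22 and 10.21 in duloxetine and 10.09 and 10.17 in control (0.32 ± 0.05).

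The 3 micromolar drugs were also compared with each other. They had been pooled for lying together on the second component of these data, a choice that favours small differences between them, so the counts below are no independent evidence that they act alike. An F test over their group means in limma, with all 12 arrays sharing 1 estimate of spread, called 0 of 23521 probe sets (0%; lowest adjusted p = 1), and 446 had an unadjusted p under 0.05. Of the 182 genes past the threshold, 5 did. The 446 were 1.9% of all probe sets, under the 5% that chance alone would give. The shared spread included duloxetine replicate 2 and mirtazapine replicate 2, the arrays that stand apart. It may therefore be too wide for these 3 drugs, and a count of 0 cannot show that they act alike. The 8 probe sets of lowest p were the olfactory receptor genes Olfr994, Olfr663, Olfr1285 and Olfr509, the vomeronasal receptor genes Vmn1r173, Vmn1r220 and Vmn2r98, and Srsx. Olfr994 was at 4.88 and 4.85 under amitriptyline, 4.31 and 3.81 under citalopram and 4.01 and 4.29 under imipramine (adjusted p = 1). Only amitriptyline and imipramine were given at the same dose. Between them limma, with the same shared spread, called 0 probe sets (0%; lowest adjusted p = 0.59), with 484 (2.06%) at an unadjusted p under 0.05. The unadjusted 95% interval of that difference reached 0.313 to either side at the median probe set. For Ptgs2, amitriptyline minus imipramine was −0.30 (95% interval −0.87 to 0.27), for Cxcl2 −0.37 (−0.79 to 0.05) and for Hmox1 −0.01 (−0.36 to 0.34). For Olig1 it was −0.19 (−0.5 to 0.12) and for Top2a −0.21 (−0.57 to 0.15). Each of these had adjusted p = 1 in limma.

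Sizes under the 3 drugs are set side by side, with citalopram at its own dose. Over the 87 genes higher past the threshold, the median difference from the duloxetine and control arrays was 0.55 for amitriptyline, 0.47 for citalopram and 0.65 for imipramine, and imipramine had the largest of the 3 in 65 genes. Over the 95 lower genes it was −0.49, −0.39 and −0.45 in the same order of drugs, and amitriptyline was the farthest from 0 in 67. Citalopram was the farthest from 0 in 7 higher and 3 lower genes. For Ostn the differences were 1.30 under amitriptyline, 0.95 under citalopram and 1.51 under imipramine. The order of drugs was not tested for single genes beyond the F test.

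Duloxetine was compared with control, the other group of its pool. These groups too had been joined for lying together on the second component, which favours a small difference, so the count below is no independent evidence of likeness. Limma called 0 probe sets (0%; lowest adjusted p = 0.524), with 2236 at an unadjusted p under 0.05. Without duloxetine replicate 1, which leaves the array that stands apart as the only one of its group, 1382 probe sets passed. The count of 0 does not show that the groups were alike: the interval reached 0.313 to either side at the median probe set. For Ptgs2 duloxetine minus control was −0.45 (95% interval −1.02 to 0.12, adjusted p = 0.557), for Slc7a11 0.10 (−0.51 to 0.7, adjusted p = 0.9) and for Hmox1 −0.01 (−0.36 to 0.34, adjusted p = 0.983). The 8 probe sets of lowest p were Klk1, Bcl6b, Meikin, Cyp2c40, Tm4sf4, Olfr830, S100a5 and F2. Klk1, a kallikrein protease, had 4.66 and 4.50 in duloxetine, against 3.66 and 3.83 in control (0.83, adjusted p = 0.524). Bcl6b, a transcriptional repressor, had 7.25 and 7.30, against 7.88 and 7.72 in control (−0.53, adjusted p = 0.524). Tmem100, one of the lower genes above, had a duloxetine-control difference of −0.40 (−0.7 to −0.09, adjusted p = 0.524).

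Mirtazapine, at 50 µM and in neither pool, is set beside the others; its comparison uses the same 4 duloxetine and control arrays, so likeness between the comparisons is not read as a result. Those 4 arrays were joined for lying together on the second component, where mirtazapine lay far from them, at 7.11 and 11. That choice favours a large difference, so the mirtazapine counts and adjusted p values from limma are descriptions and no independent test. Limma called 36 probe sets higher (0.153%) and 130 lower (0.553%) than on those arrays. The count fell to 0 without mirtazapine replicate 2 and was 1145 without duloxetine replicate 2, and it lay between 28 and 305 with any other array left out. Ptgs2 was at 9.88 and 9.26 under mirtazapine (difference 2.02 ± 0.22, adjusted p = 0.0111), where the pooled micromolar difference was 2.42. Hmox1 rose by 1.17 ± 0.14 (adjusted p = 0.0134), and Ier3 rose by 0.77 ± 0.08 (adjusted p = 0.0111). Slc7a11 (1.14, adjusted p = 0.0686) did not pass. Hes5, at 8.57 and 8.62, fell by 1.08 on the log2 scale (adjusted p = 0.0101), and Aqp4 fell by 1.09 (adjusted p = 0.0111). Scrg1 was at 7.37 and 6.48 (−1.95, adjusted p = 0.0194).

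Among the 8 probe sets of lowest p for mirtazapine were 4 neuronal or lipid genes with smaller pooled differences. Tacr3, the neurokinin B receptor, had 6.84 and 6.48 under mirtazapine (difference −1.31, adjusted p = 0.0101), where the pooled micromolar difference was −0.45. Cck, the cholecystokinin peptide, had 9.82 and 9.70 (−1.01, adjusted p = 0.0101), where the pooled value was −0.31. Grp, the gastrin-releasing peptide, fell by 0.91 (adjusted p = 0.0101), and Lpl, lipoprotein lipase, by 1.03 (adjusted p = 0.0111), where the pooled values were −0.32 and −0.33. The eighth, AW047730, has no role known here. Over the 87 higher and 95 lower genes the mirtazapine medians were 0.46 and −0.59. By list, 35 of 36 stress response genes were positive under mirtazapine (median 0.20) and 45 of 45 mitosis genes negative (−0.51). Negative too were 17 of 19 astrocyte markers (−0.26), 25 of 30 Notch and BMP genes (−0.13) and 12 of 14 oligodendrocyte markers (−0.35). The NRF2 list was even, with 12 positive and 12 negative (−0.01). Most of these list shifts were thus not particular to the 3 micromolar drugs. The differences between mirtazapine and the micromolar drugs were not tested here.

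Leaving out duloxetine replicate 2 gave 378 probe sets past the threshold, of which 178 were among the 182 and 200 were not. With any other 1 array left out the count was lower than 182. It was 103 without duloxetine replicate 1, 105 and 120 without amitriptyline replicate 2 or 1, 110 and 120 without imipramine replicate 1 or 2, and 114 without citalopram replicate 2. With control as the only comparison group, 58 were higher and 133 lower, and 111 of these were among the 182. For the 30 named genes the difference without duloxetine replicate 2 stayed past the threshold in all 30, for example 2.29 for Ptgs2, 1.24 for Hmox1, −0.92 for Aqp4 and −0.80 for Hes5. Of these 30, 4 lost the threshold when some 1 other array was left out: Top2a without duloxetine replicate 1, and Cth, Crym and Tekt5 without either amitriptyline array, among others. Of the further list members named here, 15 did so, among them Mki67 and Dll3 without duloxetine replicate 1, and Glul and Mcm5 without any 1 of the other 9 arrays.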

How the data were processed

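The study measured cultured mouse neurons on 12 Affymetrix whole-transcript arrays, 2 for each of 6 groups named in the labels' titles. The deposited values are log2 values that the authors made with Affymetrix Expression Console and RMA, per the submitters' processing notes, rounded to 2 decimals. RMA background-corrects, quantile-normalises and summarises probes, so no background flag is left and low values compress fold changes. Software versions and the genome build: not given in the sources used here. Of 41345 probe sets, 23521 had exactly 1 gene symbol (22180 genes), 1814 had several and 16010 had none; by gene number, 99.2% of the first were found in the RefSeq gene table of GRCm38.p6, with 0 updates of symbols.

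Pools of 6 and 4 arrays were compared with limma 3.58.1 (R 4.3.3; lmFit and eBayes, 8 residual and 3.46 prior degrees of freedom), adjusted by Benjamini-Hochberg over all 23521 probe sets. The other tests used all 12 arrays with 1 mean per group (6 residual degrees of freedom), and all tests and intervals are two-sided. A gene in a list is its probe set of highest mean over the 10 arrays. The pools, the 30 gene lists and the rule for named genes were chosen with earlier results of these data known. The rule takes the 15 higher and 15 lower genes of largest difference past an adjusted p of 0.05 without overlap, passing over predicted genes, clones and small RNAs. It adds up to 4 such members per list, Slc6a4, Slc6a2, Htr2a and Hrh1, and the 8 lowest p of each other test. Promoter windows ran from 250 bases before to 50 after each RefSeq gene start. Replicate numbers were not taken to pair the samples: over 15 pairs of groups, the correlation of replicate 2 minus replicate 1 ran from −0.336 to 0.644 and was above 0.1 in 3. The highest was for duloxetine and mirtazapine, whose second replicates stand apart together. RMA values carry no counts, and the number of arrays limits the precision. Alternatives were each array, drug or replicate number left out, 1 mean per group, a filter at the 30th percentile of mean level, array weights, eBayes with trend and robust, a replicate block and a second quantile normalization. Figures were drawn with matplotlib 3.10.9.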

Additional observations from a re-analysis of the deposited data

Results flagged for a closer look

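In 9 of 110 gene and pool combinations checked (8.18%), 1 array lay far from the others of its pool by Dixon's criterion. No share by chance is set beside this. Many of these genes were picked for having no overlap, each pool mixes groups, and the combinations share arrays. Ptgs2 on imipramine replicate 1 was at 10.36, against 9.80 to 9.99 on the other micromolar arrays. Ccna2 on amitriptyline replicate 1 was at 8.44, against 8.69 to 8.79. The other 7 lay among the duloxetine and control arrays. Control replicate 1 was at 7.38 for Cth (others 8.23 to 8.39), 9.73 for Crym (9.17 to 9.26) and 7.36 for Dll3 (7.59 to 7.61). The same array was at 8.37 for Pax6 (8.21 to 8.23) and 6.85 for Slc6a4 (6.34 to 6.37). Duloxetine replicate 2 was at 9.48 for Hes5 (9.72 to 9.76) and 7.30 for Gpnmb (6.97 to 7.02).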

How the results depend on the processing

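The pooled count of 182 was 121 with 1 mean per group, 288 with the 30th percentile filter, 283 with trend and robust, 439 with array weights and 164 with the replicate block. It was 42 without amitriptyline, 97 without citalopram, 39 without imipramine, 2 with replicate number 1 alone and 0 with replicate number 2 alone, where 5 arrays remain. With each array left out it ran from 103 to 378. The mirtazapine count of 166 was 330 with the filter, 401 with trend and robust, 0 with array weights and 83 with the replicate block, and ran from 0 to 1145 with each array left out. The F test among the drugs gave 0 under every alternative run, and duloxetine against control gave 0 except without duloxetine replicate 1 (range 0 to 1382). No named gene past the threshold turned its direction under these alternatives, but some list medians did. Of the 30, 5 turned without duloxetine replicate 2, 2 without duloxetine replicate 1, 2 without control replicate 1 and 1 without imipramine replicate 2. Without both duloxetine arrays 7 turned, with replicate number 1 alone 8 and with replicate number 2 alone 3. Array weights turned 2, the second quantile normalization 2 and the 30th percentile filter 1. Leaving out both duloxetine arrays took fibroblast and pericyte markers to 0.02, against −0.17 with all arrays. All 30 genes of largest difference stayed past the threshold with the filter, trend and robust, array weights, the second quantile normalization, the replicate block and without duloxetine replicate 2. Each other single array left out took 0 to 3 of them below it, and leaving out amitriptyline or imipramine took 10. The causes were not tested. With 2 arrays per group, a difference of 0.83 between single groups (Klk1, duloxetine minus control) did not pass after adjustment in limma (adjusted p = 0.524).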
